A study of Mus musculus with 8 samples.

Results

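The genes described here serve the contacts between CD4+CD8+ double-positive (DP) thymocytes that select innate-like T cells. They are the SLAM receptor genes Slamf1, Slamf6, Ly9 and Cd84, the adaptor gene Sh2d1a, which encodes SAP, and the antigen-presenting gene Cd1d1. The 6 genes were taken by name from 23278 listed genes, and all 6 were tested in each of the 4 deposited tables. RNA from sorted mouse DP thymocytes had been sequenced to ask how loss of the histone deacetylase Hdac3 alters expression at a later point (DP2, high CD5 and intermediate TCRβ at the surface) and an earlier point (DP1, low CD5 and low TCRβ). The 8 libraries form 4 groups of 2, Hdac3KO DP2, WT DP2, Hdac3KO DP1 and WT DP1, all on the C57BL/6 strain and all sorted as GFP+ cells. Hdac3KO animals carried floxed Hdac3 alleles (Hdac3F/F) and LCK-Cre, a recombinase under the control of the T cell gene Lck. WT animals were Hdac3+/+, and whether they also carried the Cre is not clear from the design text. The labels give no age or sex, and RNA was pooled, from how many animals is not given in the sources used here.

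The deposited values are 1 FPKM per gene and group. FPKM corrects the number of sequenced fragments for how long the transcript is and how much was sequenced, so that levels can be set side by side between genes. Each table compares 2 groups and was normalized on its own. No value per library was used here, so the spread between libraries and the depth behind each value are unknown. The test is the authors' deposited q, and a gene was called changed at a q of 0.05 or less. Each log2 change is given with a standard error (SE) derived from its p in that table. It is an upper bound where that p is at its smallest, 5e-05. Nothing states that the libraries of a group came from separate animals, so their spread, which the p-values measure, may be technical. Hdac3 itself was lower in both knockout populations, at 15.4 FPKM in Hdac3KO DP2 against 29.7 FPKM in WT DP2, and at 11.7 FPKM in Hdac3KO DP1 against 38.1 FPKM in WT DP1 (q = 0.0131 and 0.000879 in the authors' deposited tables). Xist, which silences an X chromosome in female cells, stood in Hdac3KO at 139 FPKM in DP2 and 208 FPKM in DP1, where WT had 0.243 and 0.0945 FPKM, so sex and genotype cannot be told apart in any comparison of genotypes.

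SLAM receptors are surface proteins of the immunoglobulin superfamily, and Slamf1, Slamf6, Ly9 and Cd84 each bind a copy of themselves on a neighbouring cell. Tyrosine motifs in their tails bind SAP, a small protein made of little more than an SH2 domain, which couples the receptors to the kinase Fyn. In the thymus, invariant NKT cells are selected when a DP thymocyte recognises lipid held by CD1d on another DP thymocyte while SLAM receptors on both cells engage. Invariant NKT cells do not develop without CD1d or SAP.

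All 4 receptor genes lie within 365 kb of mouse chromosome 1 in the mm10 genome, as annotated in GENCODE M21. Ly9 is at chr1:171588624-171607410 on the minus strand, Slamf1 at chr1:171767127-171801184, Cd84 at chr1:171839697-171890718 and Slamf6 at chr1:171917515-171953170, the last 3 on the plus strand. Sh2d1a is at chrX:42502453-42529330 on the plus strand and Cd1d1 at chr3:86995834-86999441 on the minus strand. Ly9 lies wholly within the span of Cd244a on the other strand. That gene, listed as Cd244, stood at 0.375 FPKM or less in every group. Cd1d1 has a close paralogue, Cd1d2, and how reads shared by both were divided is not known.

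The docking site for SAP is a feature that the 4 receptors share in sequence. Its pattern is a threonine codon (ACN), any codon, a tyrosine codon (TAT or TAC), 2 further codons and a codon for valine or isoleucine. In the longest complete coding transcript of each receptor the pattern occurred 2 times, with the tyrosine 9 to 68 codons before the end. Of 21509 genes with a complete coding transcript, 7.95% held the pattern at least once and 0.609% at least 2 times. Only 6 held it at least 2 times within the last 70 codons, a window set to span the sites of the members, and these were the 4 members, Cd244a and Asah2. The 8 sites are shown 5′ to 3′ on the coding strand with the tyrosine codon in capitals, because they are the point at which receptor and adaptor meet.
Slamf1, exon 5, chr1:171792339-171792356: actattTATgcccaagta
Slamf1, exon 7, chr1:171799588-171799605: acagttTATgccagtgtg
Slamf6, exon 6, chr1:171939437-171939454: actgtgTATgcacaagtc
Slamf6, exon 7, chr1:171941664-171941681: acaattTACtccatagtt
Ly9, exon 8, chr1:171593912-171593929: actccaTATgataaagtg
Ly9, exon 9, chr1:171593438-171593455: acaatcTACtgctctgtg
Cd84, exon 5, chr1:171884605-171884622: acagtaTATgctgtagtt
Cd84, exon 6, chr1:171885601-171885618: accattTATtcctcagtg
All 8 sites lie in exons, and all but those of Ly9 are read from the plus strand.

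Cd84 and Slamf6 were the members called between genotypes. In Hdac3KO DP2, Slamf6 and Cd84 were lower than in WT DP2. In Hdac3KO DP1, Slamf6 was again lower than in WT DP1, while Cd84 was higher. Slamf1, Ly9, Sh2d1a and Cd1d1 passed the test at neither point. Of the 6 members 0 were higher and 2 lower in DP2, where 10.8% of all 10674 tested genes were called in the authors' deposited table, 6.44% as higher and 4.32% as lower. In DP1 1 was higher and 1 lower, where 23.6% of 10511 tested genes were called in the authors' deposited table, 10.7% as higher and 12.9% as lower. The median log2 change of the 6 members was -0.34 in DP2 and -0.35 in DP1, beside 0.10 and -0.10 for all tested genes.

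**Figure D1:**
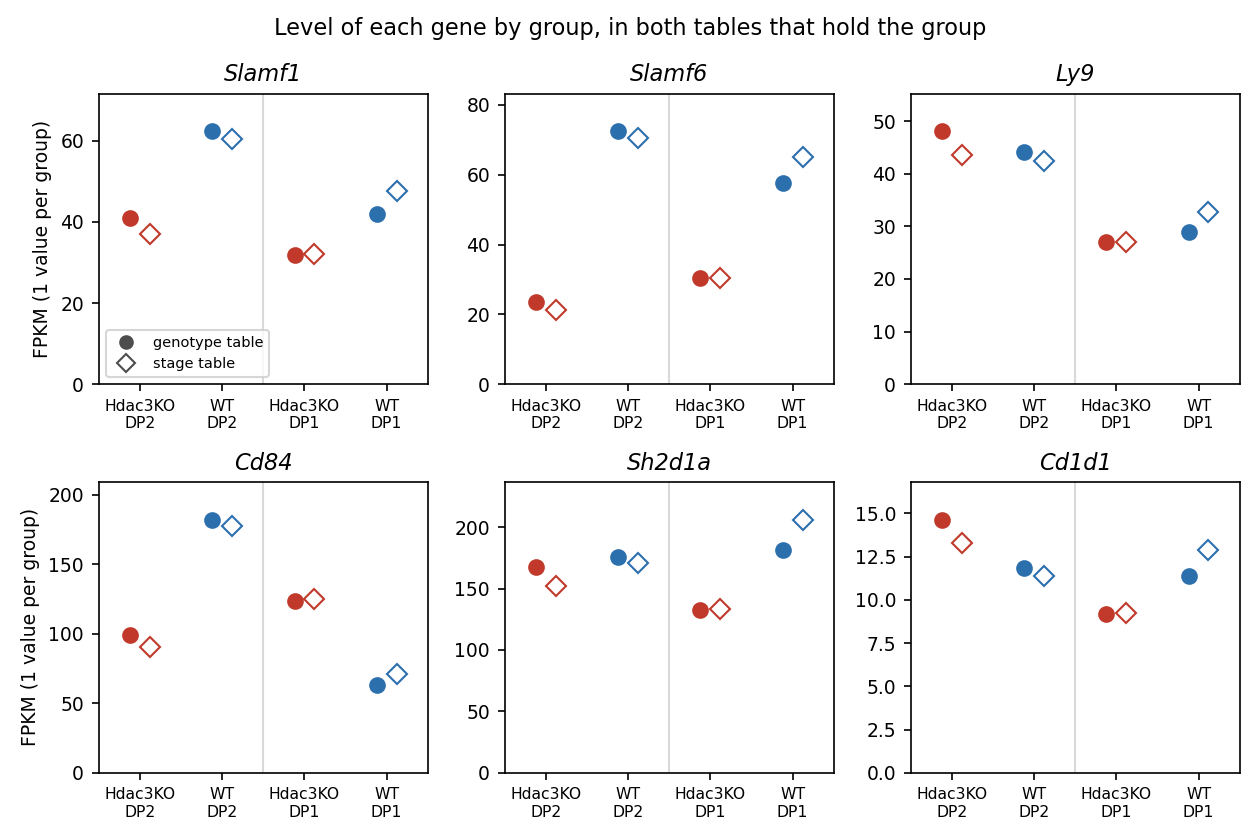
FPKM of each of the 6 genes (y axis, from 0) in the 4 groups (x axis), with 1 filled circle from the genotype table and 1 open diamond from the stage table per group; there are no error bars, since each table gives 1 value per group. Cd84 stood at 99.2 FPKM in Hdac3KO DP2, 182 in WT DP2, 124 in Hdac3KO DP1 and 63.3 in WT DP1 in the genotype tables.

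Cd84, whose receptor is found on many lymphocytes and strengthens adhesion between cells, had opposite genotype changes at the 2 points. It stood at 99.2 FPKM in Hdac3KO DP2 against 182 FPKM in WT DP2, and at 124 FPKM in Hdac3KO DP1 against 63.3 FPKM in WT DP1. The knockout was thus the lower of the pair at the later point and the higher at the earlier one, and both knockout values fell between the WT values. The log2 change in DP2 was -0.87 ± 0.24 (SE), which left 54.6% of the WT level (q = 0.00506 in the authors' deposited table). In DP1 it was 0.97 ± 0.26, or 1.95-fold higher in Hdac3KO (q = 0.00207 in the authors' deposited table). Relative to the median gene these changes were -0.99 and 1.08. The difference between them, DP2 minus DP1, was -1.84 ± 0.35 on the log2 scale, with a 95% interval of -2.52 to -1.16. It passed a two-sided normal test of the difference (q = 0.00130, adjusted over 10144 genes), by which 2.08% of genes were called, 0.897% above 0 and 1.18% below, and its p was the smallest of them all. The SE that enter this test are approximate. They are upper bounds for genes at the smallest deposited p, which holds such genes back in this test. The first rank of Cd84 therefore does not show that its genotype change depended most on the point. With each SE multiplied by 1.5 the difference no longer passed (q = 0.985). Its p stayed the smallest under that setting, so no gene passed.

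Slamf6, a receptor that in mouse acts together with Slamf1 in NKT cell selection, was lower in the knockout throughout. It had 23.5 FPKM in Hdac3KO DP2 against 72.4 FPKM in WT DP2, and 30.3 FPKM in Hdac3KO DP1 against 57.7 FPKM in WT DP1. Neither knockout value reached the lower of the WT values. The log2 change was -1.62 ± 0.40 in DP2, with 32.4% of the WT level left (q = 0.00134 in the authors' deposited table). In DP1 it was -0.93 ± 0.27, with 52.6% left (q = 0.00555 in the authors' deposited table). Of all tested genes, 95.9% changed by less than Slamf6 in DP2 and 81.9% in DP1, counting either direction. The change in DP2 minus that in DP1 was -0.70 ± 0.48, with a 95% interval of -1.64 to 0.25, and did not pass (q = 0.438 by the normal test of the difference).

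Slamf1, the partner of Slamf6 in NKT cell selection, had lower values in the knockout at both points without passing. It stood at 40.9 FPKM in Hdac3KO DP2 against 62.3 FPKM in WT DP2, and at 31.9 FPKM in Hdac3KO DP1 against 42.0 FPKM in WT DP1. The log2 change in DP2 was -0.61 ± 0.24 (q = 0.0834 in the authors' deposited table), and that in DP1 was -0.40 ± 0.25 (q = 0.252 in the authors' deposited table). The DP2 value lay near the threshold. Measured against the median gene, which was 0.12 higher in Hdac3KO DP2, it was -0.72 and passed (q = 0.0305). With the trend of fold change on transcript length removed it was also -0.72 and passed (q = 0.0311). With the trend on GC content removed it was -0.51 and did not pass (q = 0.183). It did not pass with the p of the deposited statistic either (q = 0.121).

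Ly9, a receptor that in mouse restrains the number of innate-like T cells, passed the test between genotypes at neither point. Its level was 48.0 FPKM in Hdac3KO DP2 against 44.1 FPKM in WT DP2, and 27.0 FPKM in Hdac3KO DP1 against 28.9 FPKM in WT DP1. The log2 changes of 0.12 ± 0.24 and -0.10 ± 0.25 did not pass (q = 0.823 and 0.813 in the authors' deposited tables). Their 95% intervals ran from -0.35 to 0.59 in DP2 and from -0.59 to 0.39 in DP1, so a change of 2-fold lay outside both.

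Sh2d1a, the adaptor gene, was abundant in every group. It stood at 167 FPKM in Hdac3KO DP2 against 176 FPKM in WT DP2, and at 133 FPKM in Hdac3KO DP1 against 182 FPKM in WT DP1. Each of these values was above that of at least 95% of the tested genes of its group. The log2 change was -0.07 ± 0.25 in DP2 (q = 0.905 in the authors' deposited table) and -0.45 ± 0.25 in DP1 (q = 0.178 in the authors' deposited table). The 95% intervals were -0.56 to 0.41 and -0.94 to 0.04. With the trend of fold change on GC content removed, the DP1 value was -0.64 and just passed (q = 0.0493). It was -0.23 with the trend on transcript length removed and -0.34 relative to the median gene, and passed in neither (q = 0.592 and 0.344). The gene lies on the X chromosome, and the genotypes differ in Xist and in the Y-linked gene Kdm5d (0.322 FPKM in Hdac3KO DP2 against 34.6 FPKM in WT DP2). The part of sex in the Sh2d1a values was not tested.

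Cd1d1, which encodes the molecule that displays lipid to NKT cells, was the lowest of the members in every group. It had 14.6 FPKM in Hdac3KO DP2 against 11.9 FPKM in WT DP2, and 9.19 FPKM in Hdac3KO DP1 against 11.4 FPKM in WT DP1. The log2 changes of 0.30 ± 0.33 in DP2 and -0.31 ± 0.30 in DP1 did not pass (q = 0.643 and 0.482 in the authors' deposited tables). Their difference of 0.61 ± 0.44 did not pass either (q = 0.468 by the normal test of the difference). Cd1d2 had 3.89 FPKM in Hdac3KO DP2 against 8.36 FPKM in WT DP2, without passing (q = 0.160 in the authors' deposited table).

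**Figure D2:**
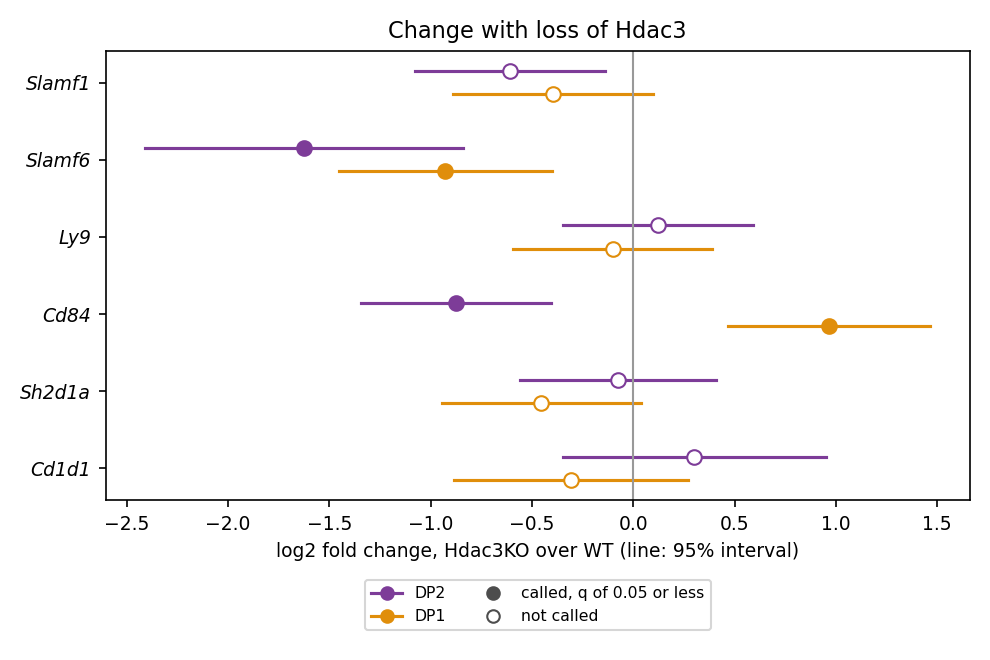
Log2 fold change of Hdac3KO over WT (x axis) for each gene (y axis), in DP2 (purple, upper) and DP1 (orange, lower), with lines for the 95% interval from the SE and filled points for genes called at a q of 0.05 or less. Cd84 lies on opposite sides of 0, at -0.87 in DP2 and 0.97 in DP1, and Slamf6 is below 0 at both points.

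The step from DP1 to DP2 was compared within each genotype. In WT cells Cd84 rose, and in Hdac3KO cells Ly9 rose. Of the 6 members, 1 was higher and 0 lower in Hdac3KO DP2, where 6.43% of 10231 tested genes were called in the authors' deposited table, 1.78% as higher and 4.65% as lower. In WT DP2 also 1 was higher and 0 lower, where 22.3% of 10851 tested genes were called in the authors' deposited table, 5.56% as higher and 16.8% as lower. The median gene was 0.33 lower in WT DP2 than in WT DP1 and did not move in Hdac3KO (-0.01). The stage tables hold the same libraries as the genotype tables, so they are not a second test of the same effects.

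Cd84 had 90.2 FPKM in Hdac3KO DP2 against 125 FPKM in Hdac3KO DP1, and 178 FPKM in WT DP2 against 71.2 FPKM in WT DP1. The stage change in WT was 1.32 ± 0.32, or 2.49-fold (q = 0.000835 in the authors' deposited table). In Hdac3KO it was -0.47 ± 0.21, which did not pass (q = 0.200 in the authors' deposited table). The higher level at DP2 that WT cells showed was not seen in the knockout. The Hdac3KO change minus the WT change was -1.79 ± 0.38 and passed the normal test of the difference (q = 0.00672, adjusted over 9969 genes), by which 3.13% of genes were called, 2.07% above 0 and 1.06% below. Sex markers moved with stage as well. Y-linked Ddx3y was at 154 FPKM in WT DP2 against 64.5 FPKM in WT DP1 (1.25 ± 0.31, q = 0.000835 in the authors' deposited table), and Uty and Eif2s3y were also called higher in WT DP2. Xist was at 127 FPKM in Hdac3KO DP2 against 209 FPKM in Hdac3KO DP1 (q = 0.0337 in the authors' deposited table). Xist was at 0.237 FPKM in WT DP2 and 0.106 FPKM in WT DP1, and Ddx3y at 0.629 FPKM in Hdac3KO DP2 and 0.191 FPKM in Hdac3KO DP1. At both points WT thus had Y-linked transcripts and almost no Xist, and Hdac3KO the reverse. What moved these markers with stage, and its part in the stage changes of Cd84 and Ly9, was not tested.

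Ly9 stood at 43.6 FPKM in Hdac3KO DP2 against 27.0 FPKM in Hdac3KO DP1, and at 42.5 FPKM in WT DP2 against 32.8 FPKM in WT DP1. The log2 change was 0.69 ± 0.22 in Hdac3KO (q = 0.0350 in the authors' deposited table) and 0.37 ± 0.28 in WT (q = 0.350 in the authors' deposited table). Relative to the median gene both genotypes gave 0.70. The difference between the stage changes was 0.32 ± 0.36 and did not pass (q = 0.634 by the normal test of the difference). The call in Hdac3KO lay close to the threshold and ended with the length trend removed (0.66, q = 0.0509), with which the WT change passed (0.83, q = 0.0299).

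Slamf6 had 21.4 FPKM in Hdac3KO DP2 against 30.6 FPKM in Hdac3KO DP1, and 70.6 FPKM in WT DP2 against 65.2 FPKM in WT DP1. Neither log2 change, -0.52 ± 0.24 and 0.11 ± 0.28, passed (q = 0.252 and 0.812 in the authors' deposited tables). Slamf1 changed with stage by 0.21 ± 0.22 in Hdac3KO and 0.35 ± 0.28 in WT without passing. For Sh2d1a the values were 0.19 ± 0.22 in Hdac3KO and -0.27 ± 0.28 in WT, and for Cd1d1 0.52 ± 0.28 and -0.18 ± 0.36, none of which passed.

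**Figure D3:**
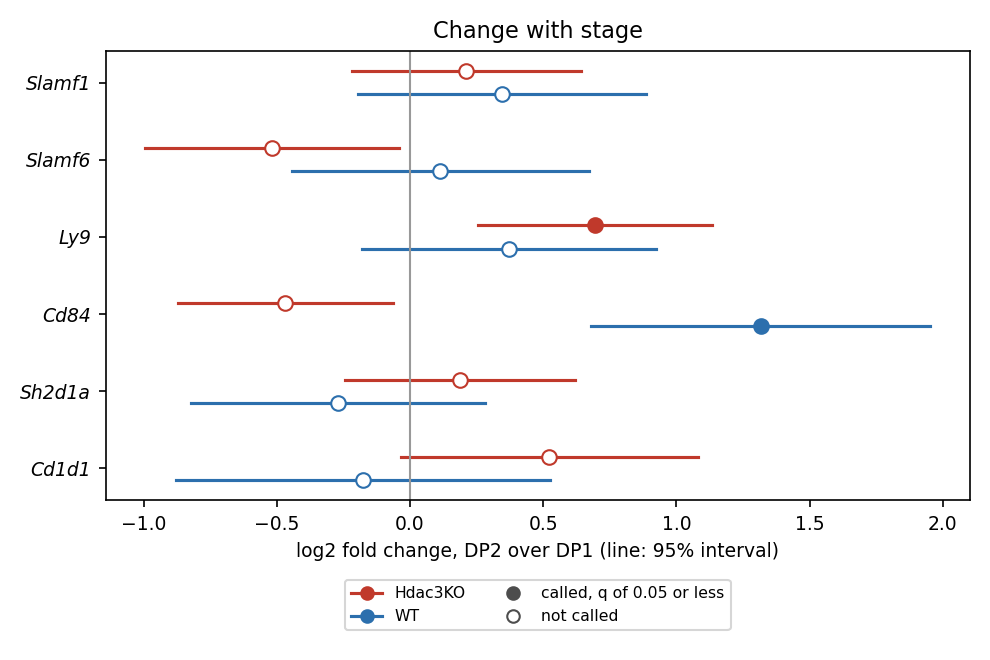
Log2 fold change of DP2 over DP1 (x axis) for each gene (y axis), in Hdac3KO (red, upper) and WT (blue, lower), with lines for the 95% interval from the SE and filled points for genes called at a q of 0.05 or less. Cd84 is at 1.32 in WT and -0.47 in Hdac3KO, and the only other filled point is Ly9 in Hdac3KO at 0.69.

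The makeup of the receptor transcripts therefore differed between the groups. Summed over the 4 receptor genes, the FPKM came to 212 in Hdac3KO DP2 against 361 in WT DP2, and to 213 in Hdac3KO DP1 against 192 in WT DP1. DP2 and DP1 are here on separate scales. In the stage tables, which hold both points of a genotype, the sum was 192 in Hdac3KO DP2 against 214 in Hdac3KO DP1. In WT it was 351 in DP2 against 217 in DP1. Slamf6 made up 11.1% of the sum in Hdac3KO DP2 against 20.1% in WT DP2, and 14.3% in Hdac3KO DP1 against 30.1% in WT DP1. Cd84 made up 46.9% in Hdac3KO DP2 against 50.4% in WT DP2, and 58.1% in Hdac3KO DP1 against 33.0% in WT DP1. These shares have no replicate check. They do not depend on the table's scaling, and they differed by less than 1 percentage point when taken from the stage tables.

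The order of the receptor genes by level also differed. In WT cells at both points it was Cd84, Slamf6, Slamf1 and Ly9. In Hdac3KO DP1 Slamf6 stood at 30.3 FPKM beside Slamf1 at 31.9 and Ly9 at 27.0, neighbouring values that cannot be ranked without a spread between libraries. In Hdac3KO DP2 Slamf6 was the lowest receptor at 23.5 FPKM, with Slamf1 at 40.9 and Ly9 at 48.0. In WT DP1 Cd84 at 63.3 and Slamf6 at 57.7 FPKM were likewise near each other. Sh2d1a was 1.68 times the highest receptor in Hdac3KO DP2, 0.967 times in WT DP2, 1.07 times in Hdac3KO DP1 and 2.87 times in WT DP1.

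**Figure D4:**
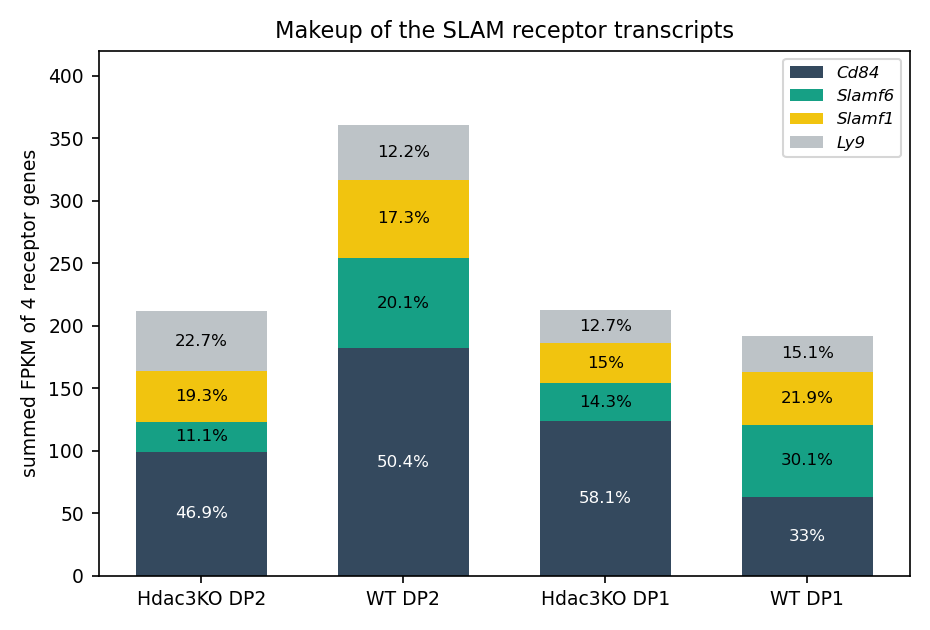
Summed FPKM of Cd84, Slamf6, Slamf1 and Ly9 (y axis, from 0) in the 4 groups (x axis), from the genotype tables, with each block's share of the sum printed in it; there are no error bars, since each group has 1 value. The sum is 361 in WT DP2 and between 192 and 213 in the other 3 groups. The DP2 and DP1 bars were normalized separately and are on separate scales.

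The stretches before the start sites of Cd84 and Slamf6 are given because these genes moved with genotype, in opposite directions at DP1. Each run is the 250 bases before the RefSeq start site on the plus strand of GRCm38.p6, the mm10 assembly, 5′ to 3′. A RefSeq start site was matched for 3 of the 6 members, Slamf1, Slamf6 and Cd84. Capitals mark a RUNX site, TGTGGT.
Cd84, chr1:171839447-171839696: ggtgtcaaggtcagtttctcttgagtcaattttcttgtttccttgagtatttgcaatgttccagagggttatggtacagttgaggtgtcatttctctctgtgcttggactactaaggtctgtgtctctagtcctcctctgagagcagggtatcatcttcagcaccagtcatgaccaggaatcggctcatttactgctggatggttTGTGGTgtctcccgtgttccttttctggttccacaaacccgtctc
Slamf6, chr1:171917212-171917461: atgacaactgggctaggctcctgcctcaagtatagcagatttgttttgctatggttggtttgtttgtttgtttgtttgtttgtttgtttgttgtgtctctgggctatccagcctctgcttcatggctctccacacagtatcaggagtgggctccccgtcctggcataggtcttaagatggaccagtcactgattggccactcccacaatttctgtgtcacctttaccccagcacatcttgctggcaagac
Both strands were searched. The Cd84 stretch held 1 RUNX site, whose first base is at position -45 relative to the start site. The Slamf6 stretch held none. The same letters occur in 14.0% of 32851 stretches of this length. An E box, CANNTG, the element of the E proteins encoded by Tcf3 and Tcf12, was found once in each and in 66.2% of all such stretches. A match of letters is no evidence of binding.

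Apart from Cd48, other SLAM genes were scarce in these cells. Of 7 further receptor, ligand and adaptor genes, only Cd48, which encodes a ligand of the family and lies between Ly9 and Slamf1, was tested. It stood at 39.5 FPKM in Hdac3KO DP2 against 48.4 FPKM in WT DP2, and at 31.0 FPKM in Hdac3KO DP1 against 33.3 FPKM in WT DP1, and passed in neither comparison (q = 0.642 and 0.842 in the authors' deposited tables). Slamf7, in the same cluster, was at 0.679 FPKM or less in every group. The SAP relatives Sh2d1b1 and Sh2d1b2 were at 0.569 FPKM or less.

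Downstream of the receptors, most genes of SAP signalling were not called between genotypes. Of 16 such genes, 4 were higher and 0 lower in Hdac3KO DP2, and 5 were higher and 1 lower in Hdac3KO DP1. Over all tested genes, 6.44% were called higher and 4.32% lower in DP2, and 10.7% higher and 12.9% lower in DP1. The list medians were 0.31 in DP2 and 0.40 in DP1, beside 0.10 and -0.10 for all tested genes. Fyn, the kinase that SAP brings to the receptors, was at 41.8 FPKM in Hdac3KO DP2 against 42.1 FPKM in WT DP2, and at 31.2 FPKM in Hdac3KO DP1 against 16.7 FPKM in WT DP1. It passed at DP1 (0.91 ± 0.24, q = 0.00255 in the authors' deposited table), and the difference between its changes, -0.91 ± 0.34, did not pass (q = 0.116 by the normal test of the difference). Prkcq, the protein kinase C-theta gene that acts after Fyn in NKT cell development, was higher in Hdac3KO DP1 at 103 FPKM against 59.1 FPKM in WT DP1 (0.80 ± 0.25, q = 0.0109 in the authors' deposited table).

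The other genes called in this list include both activators and inhibitors of signalling. Malt1, a protease of NF-kB activation, was higher at both points, with log2 changes of 0.72 ± 0.24 in DP2 and 1.36 ± 0.34 in DP1. Vav1, an exchange factor, and Inpp5d, the lipid phosphatase SHIP-1 that SLAM receptors can recruit in the absence of SAP, were higher in Hdac3KO DP2 (0.93 ± 0.23 and 0.86 ± 0.23). Ptpn6, which encodes the phosphatase SHP-1, was lower in Hdac3KO DP1, at 61.4 FPKM against 107 FPKM in WT DP1. Rasa1, a Ras-inhibiting gene, was higher in Hdac3KO DP1 at 35.7 FPKM against 13.2 FPKM in WT DP1. The genotype change of Rasa1 also differed between the points, by -1.55 ± 0.42 (q = 0.0312 by the normal test of the difference), the only one of the 16 to do so. As for Cd84, this difference did not pass with each SE multiplied by 1.5.

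Genes for CD1d folding, lipid loading and transport gave 3 higher and 0 lower of 15 tested in Hdac3KO DP2, and 0 higher and 1 lower of 14 in Hdac3KO DP1, beside shares over all tested genes of 6.44% higher and 4.32% lower in DP2 and 10.7% higher and 12.9% lower in DP1. Psap, the precursor of the saposins that load lipid onto CD1d, was at 192 FPKM in Hdac3KO DP2 against 103 FPKM in WT DP2 (0.89 ± 0.25, q = 0.00805 in the authors' deposited table). Its change in DP2 minus that in DP1 was 1.19 ± 0.36 (q = 0.0487 by the normal test of the difference). The lysosomal lipid carrier gene Npc2 (0.83 ± 0.25) and Ctsl, which encodes cathepsin L (0.69 ± 0.24), were the other two. All 3 encode lysosomal proteins, and Cd1d1 itself did not pass. B2m, the light chain of CD1d, stood at 308 FPKM in Hdac3KO DP2 against 340.1 FPKM in WT DP2, and did not pass (q = 0.797 in the authors' deposited table). The lower gene in DP1 was Ap2m1, an adaptor of endocytosis (-0.85 ± 0.25).

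Regulators of innate-like T cell selection were called in both directions. Of 15 tested, 3 were higher and 4 lower in Hdac3KO DP2, and 3 were higher and 2 lower in Hdac3KO DP1. The shares over all tested genes were again 6.44% higher and 4.32% lower in DP2, and 10.7% higher and 12.9% lower in DP1, so that the lower genes of DP1 were near the background. Egr2, a transcription factor needed for NKT cells, was at 5.36 FPKM in Hdac3KO DP2 against 19.3 FPKM in WT DP2 (-1.85 ± 0.46, q = 0.00134 in the authors' deposited table). Egr1 was lower at both points (-1.20 ± 0.29 in DP2 and -1.50 ± 0.37 in DP1), as was the E protein inhibitor Id3 (-0.97 ± 0.30 and -1.73 ± 0.43). Id2, a further inhibitor of E proteins, was lower in DP2 (-2.01 ± 0.55). Bcl2l1 and Mef2d were among the higher genes in DP2, with Bcl2l1, a survival gene of DP thymocytes, at 81.0 FPKM in Hdac3KO DP2 against 37.9 FPKM in WT DP2. The change of Bcl2l1 in DP2 minus that in DP1 was 1.23 ± 0.37 (q = 0.0459 by the normal test of the difference). This q also lay close to the threshold, and the difference did not pass with each SE multiplied by 1.5. The higher genes of DP1 were Elf1 (1.11 ± 0.27), Runx1 (0.83 ± 0.24), which encodes a RUNX factor of T cell development, and Mef2d (0.76 ± 0.26).

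The genes nearest to each member in their 4 log2 changes (both genotype and both stage comparisons) were found by Euclidean distance among 7257 genes with at least 5 FPKM in 1 group of every table, leaving out joined entries, small RNA genes and unnamed loci. The nearest to Cd84 were Zfp40, Zfp820 and Zfp930, zinc finger genes, at distances of 0.17, 0.29 and 0.33. Zfp820, for one, changed by -0.95 in DP2 and 0.72 in DP1 between genotypes. Slamf6 had no near match, its closest being Slc35a3 at 0.55, then Hsd17b12 and Moap1. For Slamf1 they were Oxr1, Btrc and Casd1 (0.15 to 0.16), for Ly9 Traf3, Zfp189 and Tyk2 (0.09 to 0.18), for Sh2d1a Iars, Shf and Fam105b (0.05 to 0.06), and for Cd1d1 Zbtb17, Mppe1 and Twf2 (0.07 to 0.11). Among the members, Sh2d1a and Cd1d1 lay closest at 0.53, and Cd84 and Cd1d1 farthest apart at 2.49. The 4 changes rest on the same 8 libraries, so the distances are a description.

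The sorted cells carried DP markers. Rag1, Cd8b1 and Dntt stood between 639 and 3006 FPKM in all groups of the genotype tables, and the 10 DP markers summed to 7515 FPKM in Hdac3KO DP2 against 3551 FPKM in WT DP2, and to 7017 FPKM in Hdac3KO DP1 against 6395 FPKM in WT DP1. Rag1 carried much of these sums without passing in either comparison. Without it, a choice made after its values were seen, they came to 4509 FPKM in Hdac3KO DP2 against 2879 FPKM in WT DP2, and to 4362 FPKM in Hdac3KO DP1 against 5197 FPKM in WT DP1, so that the order in DP1 turned. Of the 10 markers 4 were called higher and 0 lower in Hdac3KO DP2, and 0 higher and 1 lower, Cd24a, in Hdac3KO DP1. WT DP2 had the lowest sum, and it is the group where Cd84 and Slamf6 were highest. The part of this in their values was not tested. The 8 markers of mature innate-like T cells summed to 10.7 FPKM in Hdac3KO DP2 against 14.8 FPKM in WT DP2, and to 9.44 FPKM in Hdac3KO DP1 against 5.82 FPKM in WT DP1. Zbtb16, their defining transcription factor, was at 0.231 FPKM or less in each. Cd44, a marker of activated and memory T cells, was at 0.721 FPKM in Hdac3KO DP2 against 4.37 FPKM in WT DP2 and was called lower (q = 0.00245 in the authors' deposited table). Tbx21, a transcription factor of mature NKT cells, was at 1.06 FPKM in Hdac3KO DP2 against 2.92 FPKM in WT DP2 (q = 0.0763 in the authors' deposited table). Both were highest in WT DP2, as were Cd84 and Slamf6. The other markers of this list did not all go this way. Cxcr6 was at 7.36 FPKM in Hdac3KO DP2 against 6.24 FPKM in WT DP2. In DP1 it was at 6.59 FPKM in Hdac3KO against 1.84 FPKM in WT, and it passed in neither comparison. Klrb1c, Il4 and Zbtb16 also had higher values in Hdac3KO DP2 than in WT DP2, and Il2rb a lower one, none of them tested. The part of mature innate-like T cells in the Cd84 and Slamf6 values was not tested. SLAM receptors are also made by B cells and myeloid cells. The 5 B cell markers summed to 6.33 FPKM in Hdac3KO DP2 against 8.99 FPKM in WT DP2, and to 7.72 FPKM in Hdac3KO DP1 against 8.58 FPKM in WT DP1, with Cd79b holding most of it. The 6 listed myeloid and dendritic markers summed to 19.7 FPKM in Hdac3KO DP2 against 7.61 FPKM in WT DP2, and to 10.9 FPKM in Hdac3KO DP1 against 3.95 FPKM in WT DP1. Itgam, at 15.7 FPKM in Hdac3KO DP2 against 1.60 FPKM in WT DP2 and 9.58 FPKM in Hdac3KO DP1 against 2.40 FPKM in WT DP1, was called higher in both. It held most of the knockout sums, and none of the other listed markers was tested. Lyz2, H2-Aa and Csf1r had lower values in Hdac3KO DP2 than in WT DP2, and Itgax and Flt3 higher ones. In Hdac3KO DP1 Lyz2 and H2-Aa were lower than in WT DP1, and Csf1r, Itgax and Flt3 higher. Csf1r was at 0.573 FPKM or less. Epithelial markers summed to between 6.27 and 12.6 FPKM and the 2 listed erythroid markers to between 0.851 and 2.69 FPKM. In Hdac3KO DP1, epithelial Psmb11 was called higher, at 7.30 FPKM against 3.21 FPKM in WT DP1 (q = 0.00154 in the authors' deposited table). Epcam, the other epithelial marker tested there, was lower without passing (q = 0.0503 in the authors' deposited table). Erythroid Alas2 was called higher in Hdac3KO DP1, at 2.51 FPKM against 0.676 FPKM (q = 0.0117 in the authors' deposited table). In sorted populations measured in bulk, fewer cells making a transcript and less transcript per cell cannot be told apart.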

How the data were processed

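RNA from 8 libraries of sorted thymocytes was analysed from 4 deposited tables. Per the submitters' processing notes, the tools were Trimmomatic 0.32, TopHat2 2.0.11 and Cuffdiff 2.1.1 with the mm10 genome; settings and annotation are not given in the sources used here. The authors deposited 1 FPKM per gene for each group. Each table has a scale of its own (the same group's median ratio between tables ran from 0.908 to 1.14). The deposited test statistic is Cuffdiff's score, and the deposited p-value and q-value are Cuffdiff's, the q adjusted over the tested genes. Totals per library were not used, so the depth is unknown and no counting interval is given.

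Log2 changes were computed from the FPKM with no pseudocount. SE are the size of the log2 change over the normal quantile of the deposited p, and intervals are 1.96 SE at 95%. Differences of changes were tested with a two-sided normal test and Benjamini-Hochberg adjustment. The code was tested on simulated data that took the SE as true, so the SE themselves were not checked. The median gene was taken where both groups reached 10 FPKM, and trends on transcript length and GC content used a lowess curve (fraction 0.3) and GENCODE M21. The named genes are all 6 members, up to 5 called genes with the largest changes per list and table, and the 3 nearest genes to each member. Ptpn6 in DP1, Id3 in DP2, Asah2, the single markers and the list genes not called were chosen after their values were seen. Some list genes and markers are counted but not reported singly here. The members and lists were chosen with earlier results of these data known. Versions were Python 3.11.15, pandas 2.3.3, scipy 1.17.1 and statsmodels 0.14.6. Alternatives were another q, a minimum log2 change, adjustment over 4 tables, centring, both trends, a minimum of 5 FPKM, the p of the deposited statistic, a pseudocount of 1, and, for the difference test, the stage tables and other SE.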

Additional observations from a re-analysis of the deposited data

Results flagged for a closer look

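The change of Cd84 between Hdac3KO and WT differed between DP2 and DP1, with a difference of -1.84 ± 0.35 on the log2 scale (q = 0.00130 by the two-sided normal test of the difference, adjusted over 10144 genes). It was noticed because the effects at the 2 points differ by a test of the difference itself and have opposite signs, -0.87 in DP2 and 0.97 in DP1. None of the other 5 members passed that test, by which 2.08% of genes were called.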

How the results depend on the processing

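No paired analysis was possible because the tables carry 1 value per group, and for the same reason no library could be left out in turn. Of the members' changes under the alternatives, 217 kept their direction and their side of the threshold, 7 lost a call, 5 gained one and 11 changed sign. Part of the 217 was fixed in advance. Only centring and the trends could change a sign, and the pseudocount of 1 kept the deposited q, so it could change no call. Requiring a log2 change of at least 1 left 0 members higher and 0 lower for genotype in DP1, 1 lower for genotype in DP2 and 0 higher for stage in Hdac3KO. With the GC trend removed 2 were lower for genotype in DP1. The call of Ly9 for stage in Hdac3KO ended, giving 0 higher, at a q of 0.01, with the length trend removed and with the p of the deposited statistic, and 2 were higher for stage in WT with the length trend removed. With SE multiplied by 1.5, 0 differences between comparisons were called. Values that changed sign were not called on either side. Relative to the median gene they were Ly9 for genotype in DP1 (0.011) and, for stage in WT, Sh2d1a (0.057) and Cd1d1 (0.15). With the length trend removed they were Ly9 (0.17) and Cd1d1 (0.087) for genotype in DP1, and Sh2d1a (0.14) and Cd1d1 (0.38) for stage in WT. With the GC trend removed they were Ly9 for genotype in DP1 (0.025), Ly9 (-0.035) and Sh2d1a (0.15) for genotype in DP2, and Cd1d1 for stage in WT (0.12). The cause was not tested. Cd84 and Slamf6 kept their genotype calls under all alternatives but the minimum log2 change, which Cd84 failed in both and Slamf6 in DP1. The unknown depth limits every value.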
